A study of Mus musculus with 3 samples.

Results

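The Klra lectin-like receptors, also called Ly49 receptors, were read as the 6 rows of the FPKM table that carry the symbols Klra1, Klra3, Klra5, Klra17, Klra18 and Klra22. The table holds 20677 rows, and no other symbol in it begins with Klra and a digit. FPKM scales fragments to transcript length and library size, so levels of different genes are compared per length. The members were chosen for their values in these libraries, so the differences given for them are a description and no test supports them.

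RNA was sequenced from skin mast cells sorted at 1 week after birth from mice of a mixed C57BL/6xCD1xFVB background that carried an EYFP reporter and an inducible Cre. The early EMP library (erythro-myeloid progenitor) came from Csf1rCre/EYFP mice given 4'OHT, the active form of tamoxifen, at embryonic day 8.5. The late EMP library came from Runx1Cre/EYFP mice with the pulse at day 8.5, and the fetal HSC library (haematopoietic stem cell) from Runx1Cre/EYFP mice with the pulse at day 9.5. Each origin has 1 library, so no value has a replicate error and no p-value is given. The Cre driver of the early EMP library differs from that of the other libraries, and driver and origin cannot be told apart there. The cells of each library are called early EMP, late EMP and fetal HSC cells below, and levels given 3 together are in that order. Differences given 3 together are late EMP over early EMP, then fetal HSC over early EMP, then fetal HSC over late EMP. The number of animals and the strain alleles each carried are not given in the labels.

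Ly49 receptors are lectin-like proteins of the cell surface, anchored with the amino terminus inside the cell, that bind classical MHC class I molecules. Most carry an inhibitory tyrosine motif in the cytoplasmic tail that recruits the phosphatases Ptpn6 and Ptpn11, while the activating ones lack it and pair with the adaptor Tyrobp. They are best known from mouse natural killer (NK) cells, where they check for missing self MHC. Their genes lie in tandem in the NK gene complex of chromosome 6, and both the number of genes and their alleles differ between inbred strains.

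The Klra members were high in early EMP cells, lower in late EMP cells and close to absent in fetal HSC cells. Their summed level was 372.1 FPKM in early EMP cells, 92.96 FPKM in late EMP cells and 1.27 FPKM in fetal HSC cells. The early EMP sum was 293 times the fetal HSC sum, and the late EMP sum was 73.2 times the fetal HSC sum. On the log2(FPKM + 1) scale the differences of the sum were -1.99 for late EMP over early EMP, -7.36 for fetal HSC over early EMP and -5.37 for fetal HSC over late EMP. Set among the single genes of its library, the sum would take rank 151 in early EMP cells, rank 738 in late EMP cells and rank 10384 in fetal HSC cells. In bulk RNA, fewer cells with these transcripts and less of the RNA per cell cannot be told apart.

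Klra22, known as the inhibitory receptor Ly49V, was the most abundant member in every library. Its level was 219.87 FPKM in early EMP cells, 49.1 FPKM in late EMP cells and 0.8 FPKM in fetal HSC cells. It stood at rank 268 of all rows in the early EMP library. On the log2(FPKM + 1) scale its difference was -2.14 for late EMP over early EMP, -6.94 for fetal HSC over early EMP and -4.80 for fetal HSC over late EMP. Among the 11529 rows with a symbol and at least 1 FPKM in 1 library, no gene was lower than Klra22 in fetal HSC over early EMP.

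Klra17, the inhibitory receptor Ly49Q, is known from plasmacytoid dendritic cells, neutrophils and macrophages rather than from NK cells. Its level was 120.37 FPKM in early EMP cells, 35.04 FPKM in late EMP cells and 0.43 FPKM in fetal HSC cells. The log2 differences were -1.75 for late EMP over early EMP, -6.41 for fetal HSC over early EMP and -4.66 for fetal HSC over late EMP. Klra17 was thus well measured in both EMP libraries and low in the fetal HSC library.

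Klra1, the inhibitory receptor Ly49A that binds some H2-D molecules, was lower than both but followed the same order. Its level was 29.5 FPKM in early EMP cells, 8.47 FPKM in late EMP cells and 0.04 FPKM in fetal HSC cells. The log2 differences were -1.69, -4.87 and -3.19 for the 3 comparisons in the order above.

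**Figure D1:**
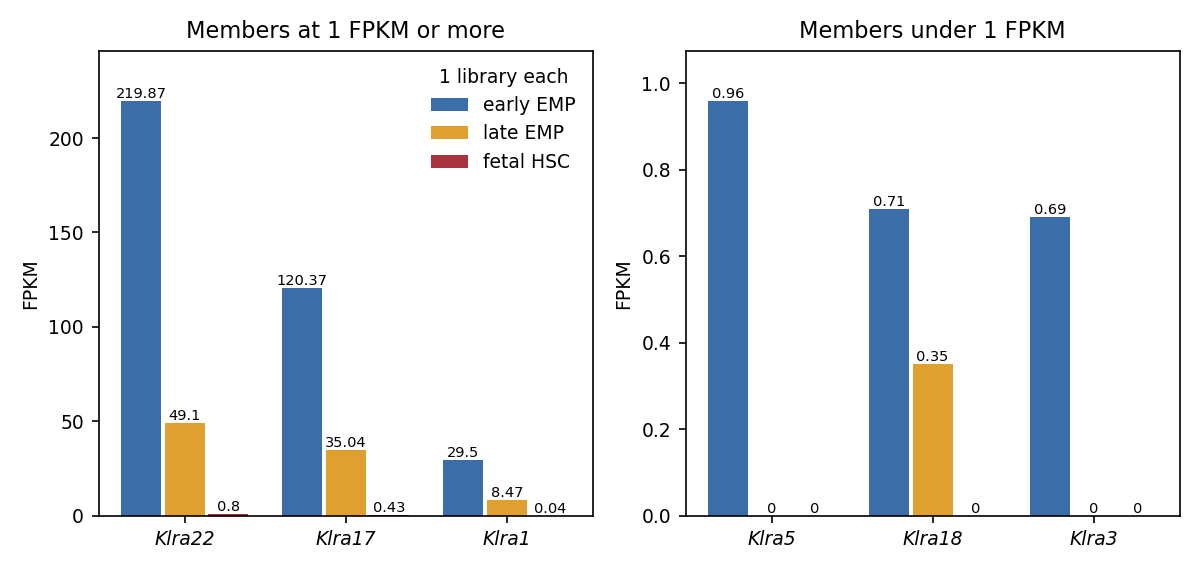
Level of each Klra member in FPKM (vertical axes, linear, starting at 0) in the libraries of early EMP, of late EMP and of fetal HSC origin, 1 bar per library with its value; the right panel has its own scale. Klra22 falls from 219.87 to 49.1 and 0.8 FPKM, while Klra5, Klra18 and Klra3 stay under 1 FPKM in every library.

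Klra5 (Ly49E) and Klra3 (Ly49C), both inhibitory receptors of NK cells, and Klra18 (Ly49R, an activating receptor known from other strains) were near the lower limit of the measurement. Klra5 stood at 0.96 FPKM in the early EMP library and was listed at 0 in both others. Klra18 stood at 0.71 FPKM in the early EMP library and 0.35 FPKM in the late EMP library, and was listed at 0 in the fetal HSC library. Klra3 stood at 0.69 FPKM in the early EMP library and was listed at 0 in both others. These low values have the same highest library as the abundant members. A listed 0 can be a failed estimate, so no fold change is given against it for these members. The counts and medians over gene lists and all rows below add 1 FPKM to each value and do include listed 0 values. Calls of 2-fold that rest on a listed 0 are therefore uncertain, among them those of Zap70, Cd3e, S100a8 and Klri1.

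Of the 6 members, 3 (Klra22, Klra17 and Klra1) reached 1 FPKM in 1 library, and they passed that filter only through the libraries where they were high. All 3 were at least 2-fold lower in each comparison. Of all 14412 rows that reached 1 FPKM, 10.8% were at least 2-fold lower in late EMP over early EMP, 17.8% in fetal HSC over early EMP and 8.26% in fetal HSC over late EMP. Rows with a symbol, as the members and the listed genes below all have, gave smaller shares, at 4.24%, 8.59% and 5.35% in the same order. At a 4-fold limit, Klra22 alone remained in late EMP over early EMP, where 0.604% of all rows passed, and all 3 remained in both comparisons of the fetal HSC library, where 1.19% and 0.569% passed. The median of all rows was 0.00, -0.11 and -0.10 on the log2 scale in the 3 comparisons. Since the members were chosen on these contrasts, nothing is read from their count.

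**Figure D2:**
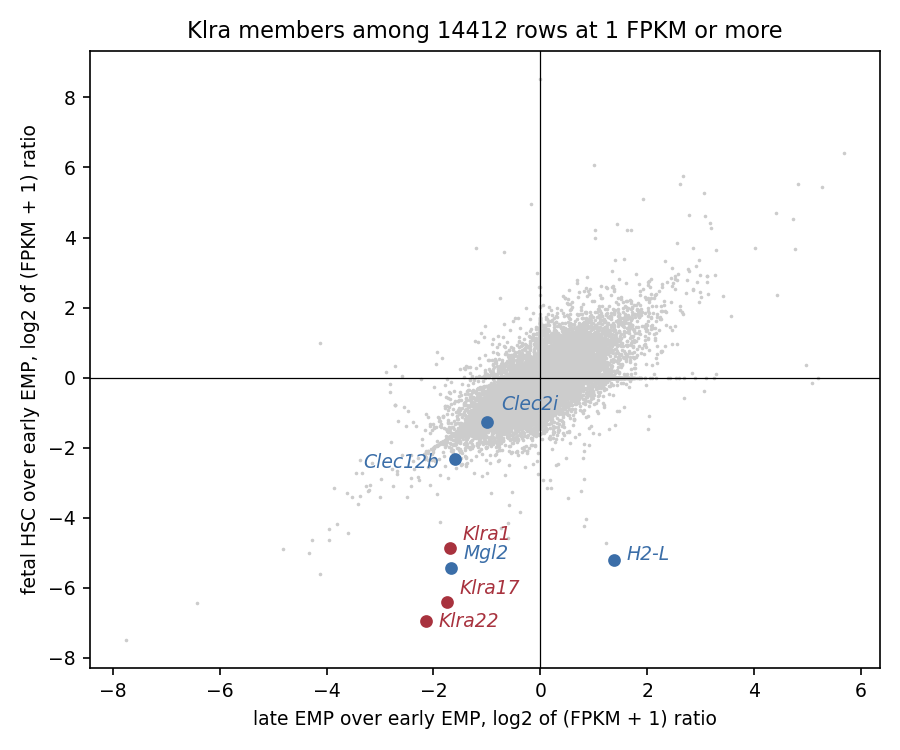
Each grey point is 1 of the 14412 rows with at least 1 FPKM in 1 library, placed by its log2 ratio of (FPKM + 1) for late EMP over early EMP (horizontal) and fetal HSC over early EMP (vertical). The 3 abundant Klra members (red) lie at the lower edge, with Klra22 at -2.14 and -6.94; genes named in the text are in blue.

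Klra22, Klra17 and Klra1 kept this order of level in libraries with very different amounts of Klra RNA. Klra22 made up 59.1% of the summed Klra FPKM in early EMP cells, 52.8% in late EMP cells and 63.0% in fetal HSC cells. Klra17 made up 32.3%, 37.7% and 33.9% in the same order, and Klra1 7.93%, 9.11% and 3.15%. The level of Klra22 was 1.83, 1.40 and 1.86 times that of Klra17 in the same order. It was 7.45 times that of Klra1 in the early EMP library and 5.80 times in the late EMP library. The level of Klra17 was 4.08 times that of Klra1 in the early EMP library and 4.14 times in the late EMP library. In the fetal HSC library that ratio was 10.8, but there the Klra1 value corresponds to about 1 fragment.

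**Figure D3:**
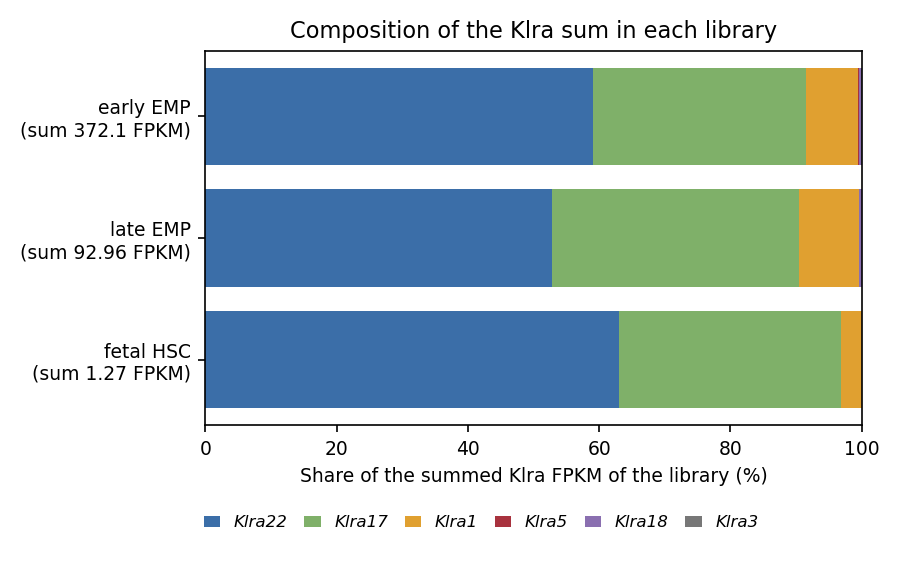
Share of each member in the summed Klra FPKM of a library (horizontal axis, percent), with the sum given beside each library. Klra22 takes 59.1%, 52.8% and 63.0% in the libraries of early EMP, of late EMP and of fetal HSC origin although the sums are 372.1, 92.96 and 1.27 FPKM.

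The number of fragments behind these values is not stated in the table and was implied from the steps between low FPKM values, which gave about 15.8, 15.6 and 17.2 M fragments for the libraries of early EMP, of late EMP and of fetal HSC origin. With the length of the annotated RefSeq-matched transcript, Klra17 then rests on about 1887 fragments in early EMP cells, 556 in late EMP cells and 8 in fetal HSC cells. Its early EMP to fetal HSC ratio of 279.9 has a 95% counting interval of 133 to 611. Klra1 rests on about 696, 201 and 1 fragments, and its ratio of 737.5 has an interval of 138 to 30471. The early EMP to late EMP ratios are better bounded, at 3.44 for Klra17 (3.12 to 3.78) and 3.48 for Klra1 (2.97 to 4.09). These intervals cover counting error only, not differences between animals or preparations.

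Copies of near-identical sequence can exchange reads, so the coding sequences were compared in the GENCODE M21 transcripts (GRCm38). Of the 6 members, 4 matched an annotated transcript there. Klra17 had the least similar relative of these 4: the closest among 10 other Klra coding sequences was Klra1, with 81.4% of aligned bases identical, and none of its 1118 windows of 50 bases occurred in a transcript of another gene. Klra1 was closest to Klra4, at 88.9%, and 3.15% of its 50-base windows occurred in another gene, in each case Klra4. Klra5 was closest to Klra6, at 91.9%, and shared 0.820% of its windows. Klra3 was closest to Klra10, at 96.2%, and shared 21.5%, with 6 other Klra genes and pseudogenes. The read length is not stated in the labels.

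Klra22 and Klra18 have no entry of their own among the gene identifiers of RefSeq GRCm38.p6, where Klra22 and Ly49v are listed as synonyms of Klra1. How the authors' estimate divided reads between the rows of Klra22 and Klra1 was not tested. The transcripts of Klra22 and Klra18 were not among those searched for shared windows. The early EMP to late EMP ratio was 4.48 for Klra22, and its early EMP to fetal HSC ratio was 274.8. In the table, 4 of the 6 member rows combine RefSeq transcripts with transcripts named as new by the sequencing provider, against 35.4% of all rows with a symbol.

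Klra17 and Klra1, the abundant members with an annotated transcript, were alike at the start of the coding sequence, which encodes the cytoplasmic tail. The longest runs of other pairs were not sought, and Klra22, the most abundant member, is not among the coding sequences compared. The longest run that both coding sequences share is shown with the start codon in capitals. It was found in these members alone among 11 Klra coding sequences. The run was picked from this pair, so that is not read as a mark of the abundant members.
Klra1 and Klra17, first 28 coding bases: ATGagtgagcaggaggtcacttattcaa

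The 4 members with a RefSeq promoter entry (GRCm38.p6, 250 bases before to 50 bases after an annotated start) are shown because they contrast the abundant Klra17 and Klra1 with the low Klra5 and Klra3. Capitals in the first 3 mark the longest run common to Klra17, Klra5 and Klra3, and capitals in Klra1 mark TGTGGT, the RUNX motif.
Klra17, chr6:129876623-129876922, minus strand: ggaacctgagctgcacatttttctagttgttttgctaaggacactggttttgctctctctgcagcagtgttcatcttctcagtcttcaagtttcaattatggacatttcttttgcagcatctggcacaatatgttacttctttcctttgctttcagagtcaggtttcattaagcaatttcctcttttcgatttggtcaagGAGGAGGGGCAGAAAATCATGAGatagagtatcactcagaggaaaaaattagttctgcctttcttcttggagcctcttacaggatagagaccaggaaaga
Klra5, chr6:129913175-129913474, minus strand: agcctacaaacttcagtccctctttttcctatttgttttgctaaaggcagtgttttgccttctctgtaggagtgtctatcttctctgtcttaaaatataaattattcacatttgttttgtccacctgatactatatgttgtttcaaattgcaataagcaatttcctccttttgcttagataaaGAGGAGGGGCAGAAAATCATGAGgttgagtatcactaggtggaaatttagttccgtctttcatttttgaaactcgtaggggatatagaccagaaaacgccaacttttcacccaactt
Klra3, chr6:130337577-130337876, minus strand: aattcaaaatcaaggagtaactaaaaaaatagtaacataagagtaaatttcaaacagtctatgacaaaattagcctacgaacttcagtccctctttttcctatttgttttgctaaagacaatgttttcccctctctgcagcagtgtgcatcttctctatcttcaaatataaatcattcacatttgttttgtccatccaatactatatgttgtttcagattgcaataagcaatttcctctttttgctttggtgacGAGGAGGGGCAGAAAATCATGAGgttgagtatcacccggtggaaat
Klra1, chr6:130386825-130387124, minus strand: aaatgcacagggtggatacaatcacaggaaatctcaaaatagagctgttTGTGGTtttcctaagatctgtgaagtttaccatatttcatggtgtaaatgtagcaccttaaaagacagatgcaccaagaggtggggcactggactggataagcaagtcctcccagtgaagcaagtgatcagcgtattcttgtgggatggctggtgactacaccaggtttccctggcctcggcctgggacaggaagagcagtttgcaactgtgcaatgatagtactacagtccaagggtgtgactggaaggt

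The common run of 23 bases began at -50 bases from the annotated start in Klra17, at -67 in Klra5 and at 4 in Klra3. It occurred in 4 of 32851 promoters, those of Klra17, Klra5, Klra3 and Klra6, and so in 1 abundant member, 2 low members and 1 gene not analysed here. It is not among the promoter bases of Klra1 shown, so this run does not sort the members by level. The RUNX motif TGTGGT, searched on both strands, occurred once in Klra1 and in none of the other 3, and in 16.8% of all promoters. The GATA motif AGATAA occurred in Klra5 (11.2% of all promoters) and TATAAA in Klra5 and Klra3 (13.6%), and the matches in Klra5 did not overlap. A match is a description of these letters and not a site of binding.

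The members with coordinates in RefSeq GRCm38.p6 lie on chromosome 6 in the order Klra17 (129831154 to 129876672), Klra5 (129898988 to 129913237), Klra3 (130323289 to 130337626) and Klra1 (130363918 to 130386874). An abundant member and a low member thus stood next to each other at both ends of this stretch. RefSeq places 14 Klra genes and pseudogenes from Klra17 to Klra2, and the levels of the others, such as the activating receptor Klra8, were not analysed here.

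Of 29 listed lectin-like genes outside the Klra family (the NK gene complex, and Klrg1 elsewhere on chromosome 6), 22 have a row and 12 reached 1 FPKM. Clec12b, an inhibitory C-type lectin-like receptor, was by far the most abundant of them and was also highest in the early EMP library, at 2778.03 FPKM against 921.45 FPKM in the late EMP library and 548.46 FPKM in the fetal HSC library. Its log2 differences were -1.59, -2.34 and -0.75, so its level in the fetal HSC library stayed far above that of any Klra member. Clec2i, a ligand of Klrb1 receptors, was at 15.91, 7.47 and 6 FPKM in the same order. Cd69, an early activation marker, was at 506.12, 455.78 and 432.78 FPKM.

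Across these 12 genes, 1 was at least 2-fold higher and 1 lower in late EMP over early EMP. There 8.65% of all rows were higher and 10.8% lower. In fetal HSC over early EMP 3 were higher and 2 lower, against 8.19% higher and 17.8% lower among all rows. In fetal HSC over late EMP 2 were higher and none lower, against 3.44% higher and 8.26% lower among all rows. Medians of this list were 0.00, 0.42 and 0.24 (log2). Clec12a, an inhibitory receptor of myeloid cells, ran opposite to the Klra members, at 0.13 FPKM in early EMP cells, 1.49 in late EMP cells and 5.96 in fetal HSC cells. The genes between Clec12b and Klra17 that reached 1 FPKM were all under 25 FPKM and none was 2-fold lower. The lectin-like neighbours as a block did not have the Klra order.

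**Figure D4:**
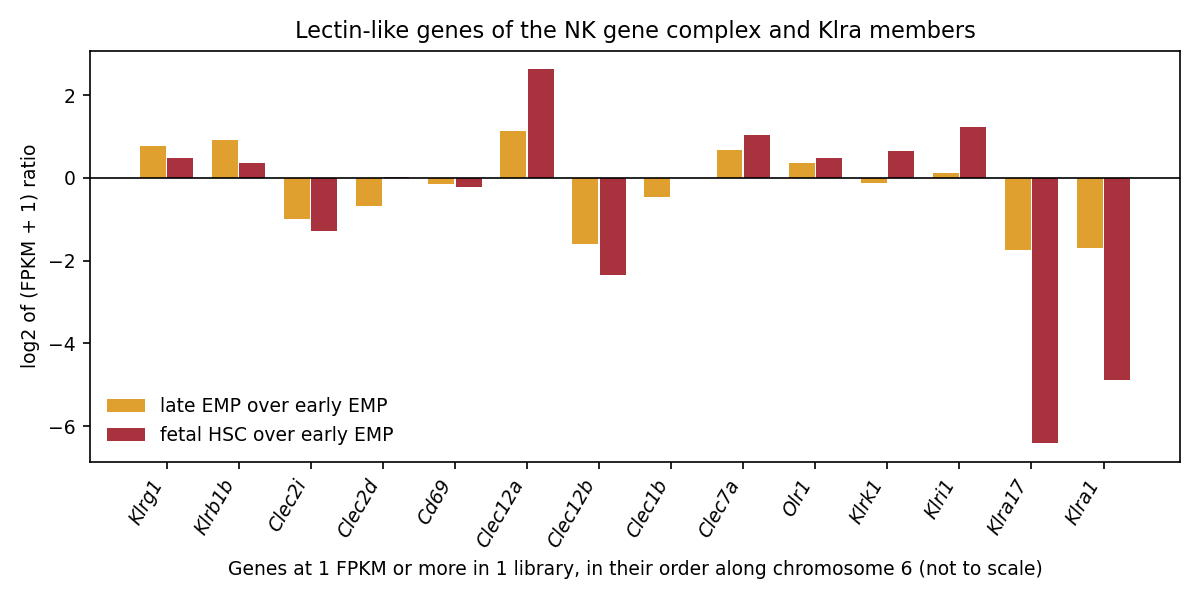
Log2 ratio of (FPKM + 1) for late EMP over early EMP and fetal HSC over early EMP (vertical axis) of Klra17, Klra1 and the 12 other lectin-like genes that reached 1 FPKM, in their order along chromosome 6 and not to scale. Clec2i, Cd69, Clec12b, Clec1b, Klra17 and Klra1 point down in both comparisons, Klrg1, Klrb1b, Clec12a, Clec7a, Olr1 and Klri1 point up in both, and Clec2d and Klrk1 differ between them. Klri1 was listed at 0 FPKM in the early EMP library, so its ratios are uncertain.

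NK cell markers were read because these receptors are typical of NK cells. Of 14 markers, 11 have a row, and their summed level was 114.42 FPKM in early EMP cells, 132.29 in late EMP cells and 340.87 in fetal HSC cells, opposite in order to the Klra sum. Most of it was Nkg7, a granule protein of killer cells, at 111.68, 117.04 and 307.83 FPKM. The granzyme Gzmb was at 1.79, 13.07 and 27.04 FPKM. The other 9 summed to 0.95, 2.18 and 6.00 FPKM, and no single one exceeded 2.31 FPKM. The defining receptor Klrb1c (NK1.1) was at 0.07 FPKM in the fetal HSC library and listed at 0 elsewhere, and the NK transcription factor Eomes was listed at 0, 0.04 and 0 FPKM. The part of NK cell RNA in the Klra difference was not tested.

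Other cells known to carry Ly49 receptors were read in the same way. The 9 plasmacytoid dendritic cell markers summed to 17.2, 43.5 and 81.3 FPKM in the libraries of early EMP, of late EMP and of fetal HSC origin. Most of that was Bst2, at 11.79, 35.55 and 60.1 FPKM, and Irf8 was at 0.21, 2.18 and 11.46 FPKM. The defining receptor Siglech was listed at 0 in the early EMP and fetal HSC libraries and at 0.03 FPKM in the late EMP library. The neutrophil markers with a row, 7 of 10, summed to 3.07, 48.3 and 111.6 FPKM. Most of the late EMP and fetal HSC sums was Mpo and Elane, at 0.88, 39.18 and 47.88 FPKM and at 0.42, 8.73 and 34.74 FPKM. Of the 3 neutrophil markers that reached 1 FPKM, 2 were at least 2-fold higher and 1 lower in late EMP over early EMP. In fetal HSC over early EMP all 3 were higher. Among all rows, 8.65% were higher and 10.8% lower in the first of these comparisons, and 8.19% were higher in the second. The 10 T cell markers summed to 18.9, 7.95 and 22.4 FPKM, of which Cd3e, a chain of the T cell receptor complex, was at 13.54, 0 and 0.63 FPKM. Its partner Cd3g ran the other way, at 1.55, 5.36 and 12.02 FPKM, and Cd3d was at 0.22, 0.16 and 0.39 FPKM. Of the 6 T cell markers that reached 1 FPKM, 1 was at least 2-fold higher and 1 lower in late EMP over early EMP. In fetal HSC over early EMP 3 were higher and 1 lower, and in fetal HSC over late EMP 4 were higher and none lower. Among all rows, 8.65%, 8.19% and 3.44% were higher in these comparisons, and 10.8%, 17.8% and 8.26% lower. The part of T cell RNA in the Klra difference was not tested. The summed plasmacytoid dendritic cell and neutrophil levels were lowest in the library where the Klra members were highest, and single markers varied. The neutrophil genes S100a8 and Ly6g were at 1.3, 0 and 28.95 FPKM and at 0.42, 0 and 0 FPKM. The part of plasmacytoid dendritic cell and neutrophil RNA in the Klra difference was not tested.

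The summed macrophage markers had the same order as the Klra sum, over a narrower range. All 15 have a row, and they summed to 131.7 FPKM in early EMP cells, 111.7 in late EMP cells and 79.0 in fetal HSC cells. Of the 11 that reached 1 FPKM, 1 was at least 2-fold lower and 2 higher in late EMP over early EMP, 5 were lower and none higher in fetal HSC over early EMP, and 5 were lower and none higher in fetal HSC over late EMP. Among all rows, 10.8%, 17.8% and 8.26% were lower in these comparisons, and 8.65%, 8.19% and 3.44% were higher. The complement gene C1qb was at 20.43, 13.3 and 3.96 FPKM, and C1qa at 14.76, 12.17 and 3.05 FPKM. Lyz2, the macrophage lysozyme, was at 37.65, 39.78 and 44.81 FPKM, and Timd4 and Mertk were at 0.79 FPKM or less in every library. The part of macrophage RNA in the Klra difference was not tested.

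Mast cell markers were abundant in every library. All 12 mast cell markers were within 2-fold in both comparisons with the early EMP library, and their sum was 218419, 188201 and 219498 FPKM. Most of all rows were within 2-fold there too: 8.65% and 8.19% were at least 2-fold higher in these comparisons, and 10.8% and 17.8% lower. In fetal HSC over late EMP 1 of the 12 markers was 2-fold lower, the tryptase Tpsab1, at 4430.74, 7524.32 and 3607.59 FPKM. Of all rows, 8.26% were lower in that comparison.

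**Figure D5:**
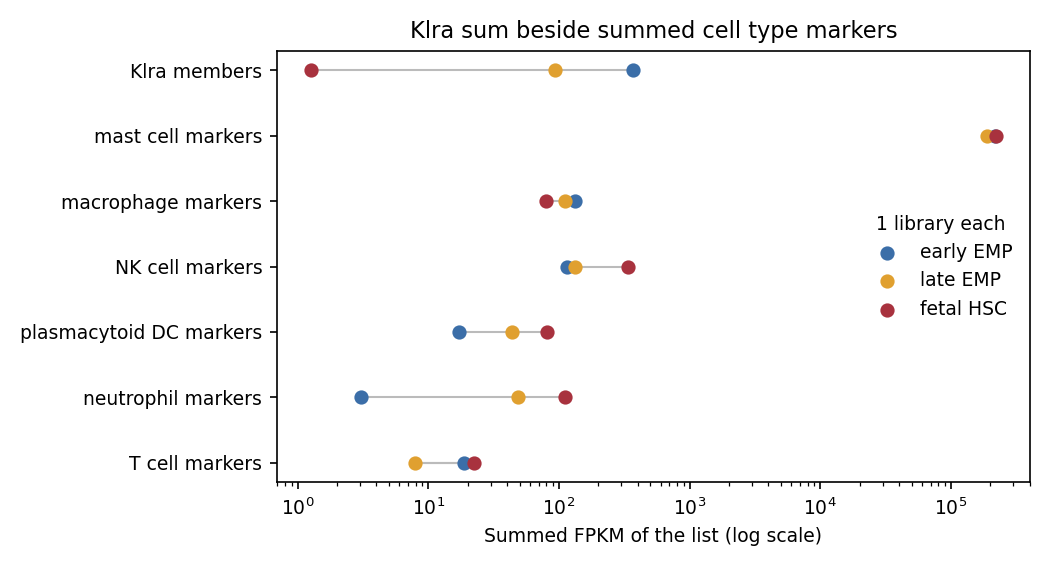
Summed FPKM (horizontal axis, log scale) of the Klra members and of 6 lists of cell type markers in the libraries of early EMP, of late EMP and of fetal HSC origin, 1 point per library. The Klra sum runs from 372.1 down to 1.27 FPKM, the macrophage sum from 131.7 to 79.0 FPKM, and the NK, plasmacytoid dendritic cell and neutrophil sums run the other way.

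The ligands of Ly49 receptors, MHC class I molecules, were abundant in all 3 libraries. B2m, their invariant light chain, was at 1657.92, 1368.93 and 1524.31 FPKM, and the heavy chain H2-D1 was at 842.53, 1150.96 and 663.43 FPKM. H2-K1 was at 174.76, 325.84 and 263.23 FPKM. Of 19 listed genes of MHC class I and peptide loading, 17 reached 1 FPKM, and 2 were higher by 2-fold or more and none lower in late EMP over early EMP. In fetal HSC over early EMP 3 were lower and none higher, and in fetal HSC over late EMP 4 were lower and 1 higher. Of all rows, 17.8% were lower in fetal HSC over early EMP, and of rows with a symbol, as all genes of this list have, 8.59%. The 3 of 17 lower genes there are near the share of all rows and above that of rows with a symbol. In fetal HSC over late EMP 8.26% of all rows were lower, a smaller share than the 4 of 17 of this list, and 3.44% were higher. In late EMP over early EMP 8.65% of all rows were higher and 10.8% lower. Medians of this list were 0.45, -0.30 and -0.31 (log2).

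H2-L had the largest log2 difference of that list in each comparison. This class I heavy chain gene, which is lacking from the C57BL/6 strain, was at 75.13 FPKM in early EMP cells, 196.87 FPKM in late EMP cells and 1.05 FPKM in fetal HSC cells. Like the Klra members it was near absent from the fetal HSC library, but unlike them it was highest in the late EMP library. Some class I heavy chain genes of low level had that order too: H2-Q1 was at 4.56, 8.72 and 0.14 FPKM, H2-T10 at 3.25, 7.22 and 0.64 FPKM, and H2-Q10 at 1.27, 2.11 and 0.35 FPKM. Others did not, among them H2-T22, at 12.83, 8.36 and 19.24 FPKM, and H2-Q7, at 1.6, 1.84 and 2.21 FPKM. H2-T24, at 6.36, 14.34 and 9.44 FPKM, was lowest in the early EMP library. The class I heavy chains are themselves similar in sequence, so the single values are uncertain. Whether the strain alleles at the Klra and MHC loci differed between the animals of the 3 libraries was not tested.

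The signalling partners of Ly49 receptors were present at similar levels. Tyrobp, the adaptor of activating receptors, was at 1212.07, 1197.75 and 1057.55 FPKM in the libraries of early EMP, of late EMP and of fetal HSC origin. Ptpn6, the phosphatase recruited by inhibitory tails, was at 238.89, 245.43 and 217.79 FPKM, and the lipid phosphatase Inpp5d at 288.74, 243.29 and 263.88 FPKM. Of 12 partners that reached 1 FPKM, 2 were higher by 2-fold or more and none lower in late EMP over early EMP, and all 12 were within 2-fold in both comparisons of the fetal HSC library. The higher ones were low RNAs: Cd247 was at 0.02, 1.05 and 0.38 FPKM, and Zap70 at 0, 1.31 and 0.64 FPKM. Among all rows, 8.65%, 8.19% and 3.44% were at least 2-fold higher in the 3 comparisons, and 10.8%, 17.8% and 8.26% lower. The list medians were -0.03, -0.13 and -0.19. The abundant partners named here thus stayed within 2-fold across libraries in which the receptors did not.

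Transcription factors that are tied to Ly49 genes in lymphocytes were also read. Runx3, which acts on Ly49 genes in NK cells, was at 34, 30.27 and 34.09 FPKM, and Runx1 at 12.69, 12.28 and 12.46 FPKM. Tcf7, which is needed for Klra1 in NK cells, was at 1.17, 0.83 and 0.93 FPKM. Of 8 factors that reached 1 FPKM, only Ets1 was beyond 2-fold in the comparisons with the early EMP library, at 0.61 FPKM there, 10.02 FPKM in the late EMP library and 12.36 FPKM in the fetal HSC library, opposite to the Klra order. In late EMP over early EMP 8.65% of all rows were at least 2-fold higher and 10.8% lower. In fetal HSC over early EMP these shares were 8.19% and 17.8%. The list medians were -0.14, -0.10 and 0.05.

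The genes most like the Klra sum were sought among 5651 other rows with a symbol and at least 10 FPKM in 1 library, by the distance between their log2 differences and those of the Klra sum for the comparisons with the early EMP library. The closest was Mgl2, a galactose-binding C-type lectin of chromosome 11, at 230.91, 72.03 and 4.38 FPKM and a distance of 1.96. Fbp2, a fructose bisphosphatase of chromosome 13, followed at 87, 4.04 and 0.81 FPKM and a distance of 2.77. Rpl34-ps1, Gm6644 and Eno1b came next, at distances of 3.09, 3.35 and 3.37. Rpl34-ps1, at 212.43, 139.32 and 7.83 FPKM, is a ribosomal protein copy whose reads can be shared with Rpl34. Gm6644 was at 20.52, 0.77 and 0 FPKM and Eno1b at 25.4, 0.7 and 0.07 FPKM. Unlike the Klra sum, both were already under 1 FPKM in the late EMP library. Mgl2 had the same order of libraries as the Klra members but remained above 4 FPKM where the Klra sum was 1.27 FPKM. The likeness rests on 3 libraries and is a description.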

How the data were processed

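Skin mast cells of 3 origins were profiled by RNA sequencing, 1 library each. The authors deposited 1 table of FPKM values per gene with 2 decimals, per the file headers. The submitters' processing notes name Bowtie2, RSEM, mm10 and GRCm38, without versions. FPKM totals were 639067 for early EMP, 614207 for late EMP and 640500 for fetal HSC cells. The column headed as a control was matched to the early EMP library through its description in the labels.

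Differences are log2 of (FPKM + 1) ratios, which understate changes of low genes; rows with at least 1 FPKM in 1 library, 14412 of 20677, were counted at 2-fold. With 1 library per group no test was made. The members and gene lists were chosen with earlier results of these data known, and 1 gene of the signalling list is not reported here. Named list genes are the most abundant and most different members and defining markers; genes alike were the 5 nearest by Euclidean distance. Ptpn6, Runx1 and Tcf7 fall outside that rule and were named for their known role, with their values seen. The NK sum without Nkg7 and Gzmb was likewise added after the values were seen.

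Depth was implied from steps between low values: 76.0%, 76.6% and 73.8% lay within 0.15 of a whole fragment, against 30% by chance for a fixed step. The step and a length offset were fitted to the same values, so the depth is approximate; Klra17 also has transcripts of unlisted length. Ratio intervals are exact binomial intervals of the implied fragments. Coding sequences were aligned globally, and identity counts aligned bases without gaps. Sequences are from RefSeq (GRCm38.p6) and GENCODE M21. Of 17613 identifiers with a symbol, 17569 matched RefSeq. The fold and depth steps were tested on simulated data. Software was Biopython 1.88, matplotlib 3.10.9, scipy 1.17.1, pandas 2.3.3 and numpy 2.4.6 under Python 3.11.15.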

Additional observations from a re-analysis of the deposited data

How the results depend on the processing

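No paired analysis was possible because each group has 1 library. Alternatives were pseudocounts of 0.1 and 5 FPKM, equal totals, equal totals after dropping the 50 top genes, scaling by median ratios, no filter or a filter at 5 FPKM, a 4-fold limit, and the sum without Klra22. Of 95 alternative values for the Klra sum, the single members and the counts of lower members, 77 stayed within 1.5 times of the reported value and 18 moved. No sum or single-member value changed direction, and a count has no direction to change. The 95 include the sum over every row named Klra and a digit, which takes the same 6 rows and so could not differ. With a pseudocount of 0.1 FPKM the sum was at -8.09 for fetal HSC against early EMP and -6.09 against late EMP on the log2 scale, and with 5 FPKM at -5.91 and -3.97. These shifts come from the pseudocount, which is large beside a sum of 1.27 FPKM. Without Klra22 the sum was at -6.70 for fetal HSC over early EMP. At the 4-fold limit 1 member was lower in late EMP over early EMP. All 12 single-member values that moved did so with a pseudocount. Of 303 alternative values for the gene lists and for all rows, 41 moved beyond 1.5 times. Counting rows with a symbol only, 4.24%, 8.59% and 5.35% of rows were at least 2-fold lower in the comparisons of late EMP with early EMP, of fetal HSC with early EMP and of fetal HSC with late EMP. With scaling by median ratios, and with equal totals after dropping the top genes, Clec2i was also 2-fold lower in late EMP over early EMP, which made 2 lower lectin-like genes. No scaling moved the median of all rows by more than 0.0965. The depth limits the low members and every fetal HSC value, where about 8 fragments stand behind Klra17 and 1 behind Klra1.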

Other observations

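Klra22 is 1 of 44 gene identifiers with a symbol that have no entry in RefSeq GRCm38.p6, and 23 of these reached 1 FPKM in 1 library. Of the 23, 4 were at least 2-fold lower in fetal HSC over early EMP, namely Klra22, H2-L, F630003A18Rik and Dux. Of rows with a symbol that reached 1 FPKM, 8.59% were lower in that comparison. Klra22 was chosen on this contrast, so nothing is read from the count of 4. H60a, which has no entry either, encodes a ligand of the NK receptor Klrk1 and is lacking from the C57BL/6 strain. It was at 0.68 FPKM in early EMP cells, 1.38 in late EMP cells and 0.01 in fetal HSC cells. H60a was not counted as 2-fold lower in fetal HSC over early EMP because 1 FPKM is added before the ratio. F630003A18Rik was at 368.63, 191.98 and 79.56 FPKM, and Dux at 4.61, 7.18 and 1.65 FPKM. H60a, F630003A18Rik and Dux were picked after their values were seen.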
